A study of Homo sapiens with 6 samples.

Results

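The proteasome genes described here are the 48 of 20033 protein-coding RefSeq genes of GRCh38.p14 whose symbol is PSM, a letter from A to G and a number, outside 28.5 to 33.5 Mb of chromosome 6. That bound left out 2 genes, PSMB8 and PSMB9. Of the 48, 46 encode subunits, activators, an inhibitor or assembly factors of the proteasome, and PSMC3IP and PSME3IP1, which encode binding partners of a subunit, were taken because their symbols match. Chromatin accessibility was measured by ATAC-seq, in which a transposase cuts and tags open DNA, in RKO, a human colon cancer cell line. The study asked how low replication stress alters accessibility, and compared 3 samples treated with DMSO, the solvent control, with 3 samples treated with 0.2 µM aphidicolin (APH), an inhibitor of replicative DNA polymerases, for 16 h. Cells of both conditions were grown in serum-containing medium at reduced oxygen, and were treated with DNase and frozen before they were tagmented. The labels number the samples within a condition and the study describes the experiments as independent, so the p-values below measure the spread between these samples of a single line.

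The proteasome degrades proteins that carry ubiquitin chains. Its core particle is a barrel of alpha subunits, which form the outer rings and the gate, and beta subunits, which form the inner rings and hold the proteolytic sites. The regulatory particle caps the barrel, where its ATPases unfold the substrate and its other subunits bind ubiquitin and remove it. Proteasome genes are expressed in nearly all cells, and transcription factors of the NFE2L1 family raise many of them together when proteasome activity is short, through a promoter sequence known as the antioxidant response element (ARE).

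The strongest accessible region of 45 of the 48 genes had a lower value in APH than in DMSO. This was 93.8% of the genes, where 80.8% of the lead regions of all protein-coding genes and 59.3% of all shared regions were below 0. In a fit that treats the samples as unpaired, no difference passed correction for the number of regions tested. A region here is a set of peaks that overlap between samples, a shared region is one with a peak in all 6 samples, and its value is the deposited signal, read from the study's methods as the mean coverage over the peak. It appears not to be scaled to library size, because between 96.9% and 97.2% of the values per sample gave a whole number (within 0.02) when multiplied by how many 32-nt bins the peak spans. On that reading values are per length and may be compared between genes, while a part of sequencing depth, which is unknown, in the differences cannot be told apart. A region belonged to a gene when the middle of its peak lay in the gene or within 1000 bp of it, and the lead region of a gene was its shared region with the highest mean value over the 6 samples. Each sample is a bulk of cells, so fewer cells with an open region and less cutting per cell cannot be told apart.

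All 48 proteasome genes had a shared region, against 14950 (74.6%) of the protein-coding genes, and none lacked a peak in any sample. They held 134 regions, of which 82 were shared. Of the other 52, 17 had a peak in APH samples alone and 8 in DMSO samples alone, and most of these rested on a single sample (13 of the 17 and 7 of the 8). Regions seen in APH alone made up 12.7% of the proteasome regions and 18.5% of all 102784 regions, and those seen in DMSO alone 5.97% and 7.03%. Proteasome genes held 102 ± 5.77 peaks per DMSO sample (SD, n = 3) and 112 ± 12.7 per APH sample, in libraries with 64511 to 84510 peaks in all. As a share of all peaks this was 0.148% ± 0.0064 in DMSO and 0.144% ± 0.0080 in APH. Of the markers checked against the label of a colon line, EPCAM and CDX2 had a peak at their start in all 6 samples, CDH1 and VIL1 in none, the lymphocyte gene CD3E and the liver genes ALB and APOA2 had no peak, and the neuronal genes SYP and RBFOX3 had one at the start in all 6.

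The lead regions of proteasome genes were strong. Their median stood at the 85.9th percentile of the 50150 shared regions and at the 64.0th of the lead regions of protein-coding genes. The median lead value of the 48 genes was 166, 199.9 and 181 in DMSO samples 1 to 3 and 146, 153 and 145 in APH samples 1 to 3. The 3 APH medians lay below the 3 DMSO medians. The medians over all protein-coding lead regions averaged 142 ± 6.82 in DMSO and 122 ± 4.32 in APH, and those over all shared regions 68.8 ± 7.40 and 67.4 ± 5.94. The lead region held the start of its gene in 38 of the 48 (79.2%), against 56.7% of protein-coding genes, and 11 lead regions also held the start of a neighbouring gene, so that their signal cannot be divided between the 2 genes.

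**Figure D1:**
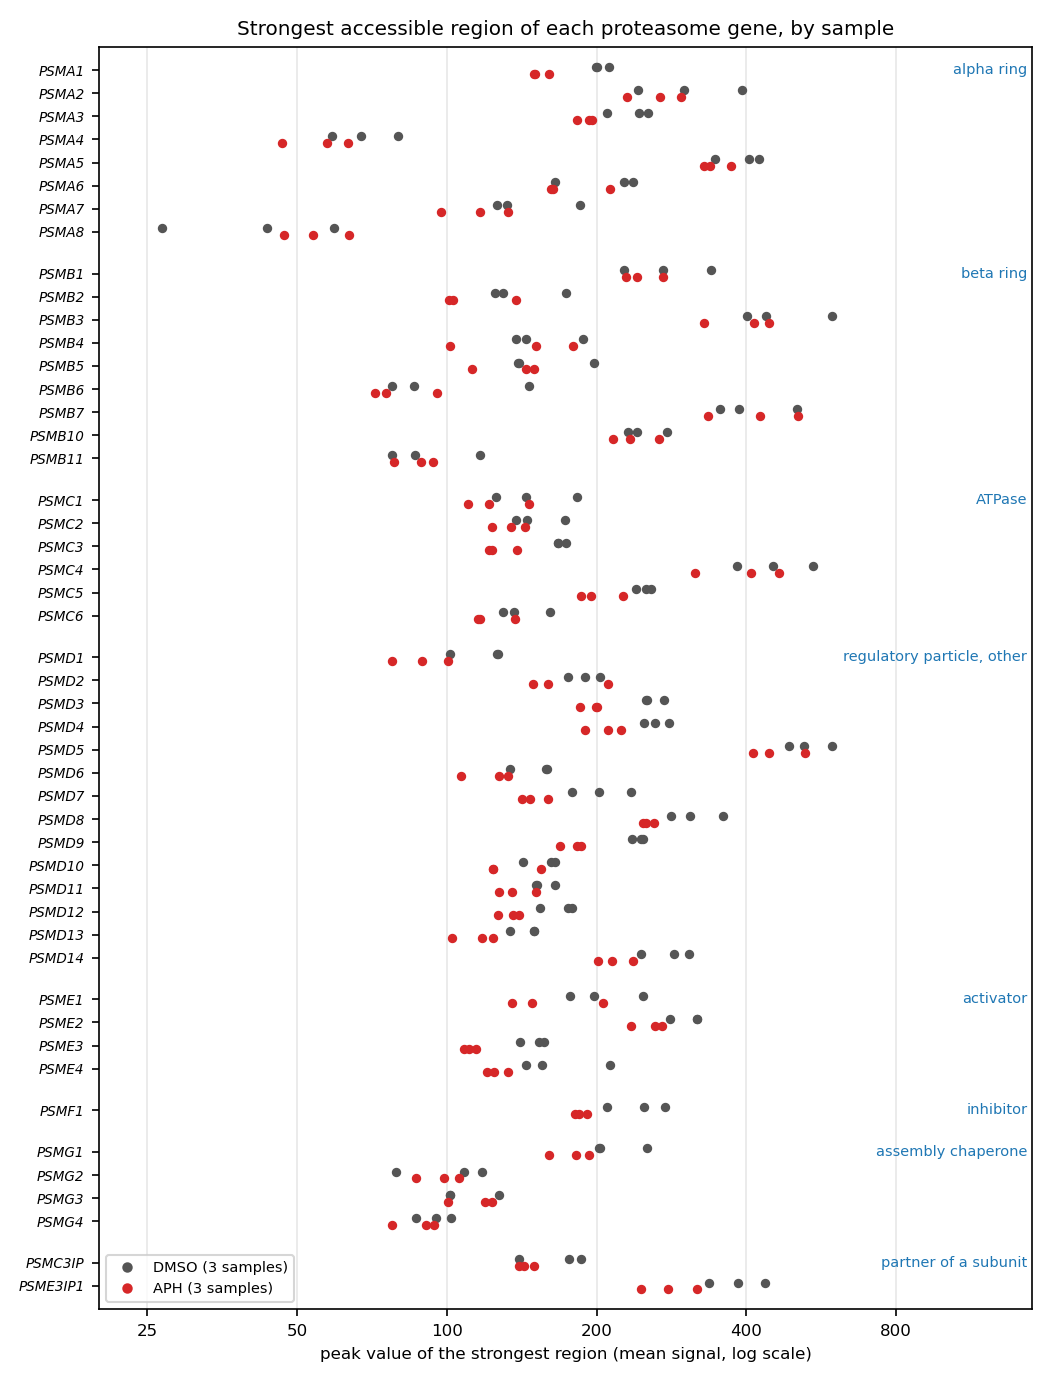
Value of the lead region (mean coverage over the peak, log axis) of each of the 48 proteasome genes, grouped by role, with 1 point per sample in grey for DMSO and red for APH. In 20 genes all 3 APH points lie left of all 3 DMSO points, and in no gene do they all lie right of them.

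The differences between APH and DMSO (log2, from limma on log2(value + 1)) ran from −0.46 for PSME3IP1 to 0.40 for PSMA8, with a median of −0.28. The median was −0.21 over the lead regions of all protein-coding genes and −0.06 over all shared regions. None of the 82 shared proteasome regions passed an adjusted p of 0.05 (limma, Benjamini-Hochberg over 50150 regions), where the background was 0.0% of all regions. The smallest adjusted p was 0.29. This fit treats the samples as unpaired. With the sample number as a replicate block in the model, 26 of the 82 passed, all lower in APH, against 11.1% of all shared regions that were lower. At an unadjusted p under 0.05, 17 lead regions were lower in APH (35.4%), against 25.5% of protein-coding lead regions and 10.1% of shared regions. None was higher, against 1.01% and 2.46%. In 20 (41.7%) every APH value lay below every DMSO value, against 31.5% of protein-coding lead regions and 14.4% of shared regions, and in none did every APH value lie above, against 1.62% and 4.21%.

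The count of lower lead regions depended on single samples and on scaling. It was 10 without DMSO sample 3 and 9 without APH sample 1, and 1 lead region was higher at an unadjusted p under 0.05 when DMSO sample 2 was left out. Strong regions had lower values in APH across the genome: over 10 equal groups of protein-coding lead regions ordered by level, the median difference ran from 0.07 in the weakest group to −0.26 in the strongest. After each sample was corrected for this trend with level, the median of the 48 was −0.08, beside −0.05 for protein-coding lead regions, and 35 genes lay below 0 (72.9%, against 61.7% of protein-coding lead regions) and 13 above. At an unadjusted p under 0.05, 3 were then lower (PSMD7, PSME3 and PSME3IP1) and 1 was higher (PSMB7), where the background was 6.07% lower and 4.38% higher. The peaks of the lead regions were narrower in APH in 41 genes (85.4%, against 62.9% of protein-coding lead regions), with a median width of 768 bp in DMSO and 692 bp in APH. With the sample's median width over all its peaks in the model, the median difference was −0.38 and all 48 lead regions, PSMA8, PSMG3 and PSMB7 included, were below 0, as were 87.4% of protein-coding lead regions. At an unadjusted p under 0.05, 34 were then lower, against 42.2% of protein-coding lead regions, and 22 of the 82 shared proteasome regions passed the adjusted p (limma, Benjamini-Hochberg), against 10.6% of all shared regions that were lower.

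**Figure D2:**
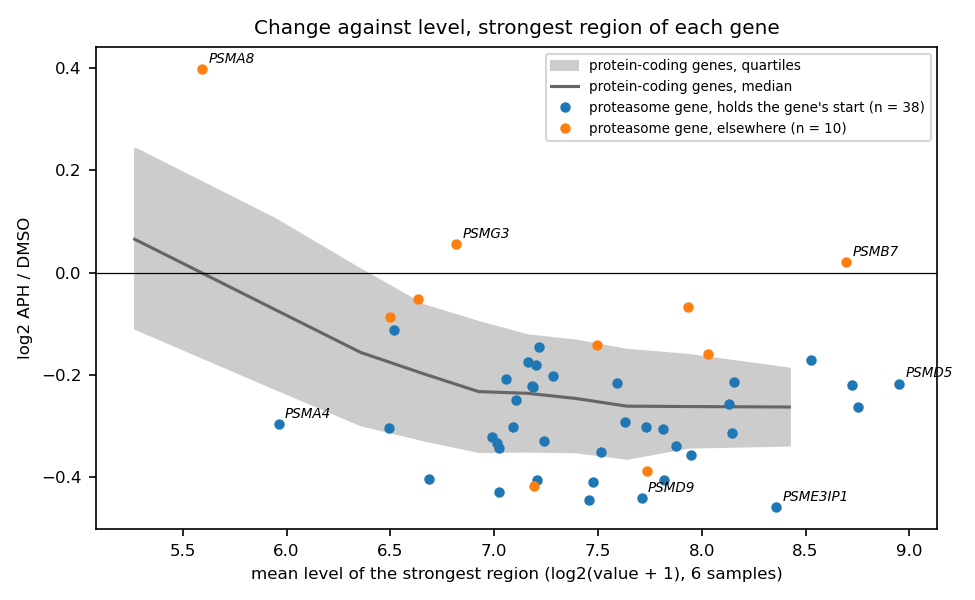
Difference of the lead region (log2 APH over DMSO) against its mean level (log2(value + 1), 6 samples) for the 48 proteasome genes, blue where the region holds the gene's start and orange elsewhere. The grey line and band are the median and quartiles of 10 level groups of protein-coding lead regions, and PSMA8, PSMG3 and PSMB7 are the 3 points above 0.

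Of the 8 genes of the alpha ring, 7 had a lower lead value in APH, 2 of them at an unadjusted p under 0.05, beside 25.5% of protein-coding lead regions, and the median difference was −0.26. The lead region of PSMA1 (chr11:14519614-14520818), which holds the start of the gene, measured 200.4, 212 and 199.6 in DMSO and 160.1, 150.2 and 149.9 in APH. The samples of each condition lay close together and the conditions did not overlap (log2 −0.41 ± 0.13 SE, limma, unadjusted p = 0.0052, adjusted p = 0.29). PSMA3, another constitutive ring subunit, measured 209.8, 243 and 253 in DMSO and 182, 196 and 193 in APH, again without overlap (−0.30 ± 0.13, limma adjusted p = 0.36). PSMA5 had the strongest lead region of the ring, with 391 ± 40.9 in DMSO and 347 ± 23.6 in APH, and the APH and DMSO values overlapped. Overlap was also seen for PSMA2, PSMA4 and PSMA6, with differences of −0.21, −0.30 and −0.22. The region of PSMA2 lies at the shared start of MRPL32, which encodes a mitochondrial ribosomal protein.

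PSMA7 and PSMA8 encode alternative forms of the same ring position, PSMA7 in nearly all cells and PSMA8 mainly in the male germ line. The PSMA7 lead region (chr20:62143131-62143961), which also holds the start of SS18L1, measured 132, 126 and 185 in DMSO and 97.2, 116 and 133 in APH. APH sample 3 lay above 2 DMSO samples, so the conditions overlapped (−0.34 ± 0.17, limma adjusted p = 0.43), and the difference was −0.17 without DMSO sample 3 and −0.23 without APH sample 1. PSMA8 had no shared region at its start, and its lead region (chr18:26185269-26185698) lay 51614 bp into the gene with values of 26.8, 59.25 and 43.5 in DMSO and 53.9, 63.5 and 47.1 in APH. DMSO sample 1 was the lowest of the 6 and DMSO sample 2 lay within the APH range (0.40 ± 0.26, limma adjusted p = 0.56), with a difference of 0.098 without DMSO sample 1 and 0.66 without DMSO sample 2. It was the weakest lead region of the 48.

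Among the 9 genes of the beta ring, 8 had a lower lead value in APH, with a median difference of −0.16. No lead region reached an unadjusted p of 0.05 (background 25.5%) and none separated the conditions (background 31.5%). These counts are for lead regions, and those of PSMB1, PSMB7, PSMB10 and PSMB11 do not hold the start of the gene. PSMB5, PSMB6 and PSMB7 encode the proteolytic subunits, with chymotrypsin-like, caspase-like and trypsin-like activity. The PSMB5 lead region (chr14:23034619-23035483), at the start of the gene, measured 139.7, 198 and 139 in DMSO and 149, 144 and 112 in APH. DMSO sample 2 stood above the rest and the other 5 values were mixed (−0.22 ± 0.17, limma adjusted p = 0.62), and the difference was −0.056 without DMSO sample 2 and −0.095 without APH sample 3. PSMB6 measured 85.9, 146 and 77.6 in DMSO and 71.5, 95.4 and 75.3 in APH at its start (chr17:4795913-4796376). DMSO sample 2 was again the highest (−0.30 ± 0.22, limma adjusted p = 0.60), and the difference was −0.03 without it and −0.48 without DMSO sample 3.

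Unlike those of PSMB5 and PSMB6, the lead region of PSMB7 did not hold the start of its gene. That region (chr9:124392768-124393400) is 22358 bp inside the gene, was one of the strongest of the 48 and measured 387, 506 and 354 in DMSO and 427, 507 and 334 in APH. The conditions had nearly the same range (0.02 ± 0.17, limma adjusted p = 0.98), and the sign of the difference turned without DMSO sample 1, DMSO sample 3 or APH sample 2. The region at the start of PSMB7 measured 139.9, 131 and 118 in DMSO and 96.1, 99.9 and 106 in APH. There every APH value lay below every DMSO value (−0.36 ± 0.15, limma, unadjusted p = 0.024, adjusted p = 0.33).

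PSMB10 encodes the immunoproteasome counterpart of PSMB7, which is induced by interferon gamma and is constitutive in lymphoid tissue. Its lead region (chr16:67935322-67936318), 1030 bp inside the gene, measured 241, 277 and 232 in DMSO and 233, 267 and 216 in APH, with overlap (−0.07 ± 0.14, limma adjusted p = 0.88). The weaker region at its start measured 128, 115 and 116 in DMSO and 107, 98.4 and 99.6 in APH, without overlap (−0.23 ± 0.15, limma adjusted p = 0.54). The difference of the PSMB10 lead region was 0.16 after correction for the trend with level, 0.0090 without DMSO sample 2 and 0.0026 without APH sample 3. PSMB11 encodes the proteolytic subunit restricted to the thymic cortex, and its only region (chr14:23041717-23042130) ended 82 bp before its start, with 86.2, 117 and 77.5 in DMSO and 93.6, 88.6 and 78.4 in APH. The values were mixed (−0.09 ± 0.18, limma adjusted p = 0.89), and the difference was 0.082 without DMSO sample 2.

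The structural beta subunits PSMB1, PSMB2, PSMB3 and PSMB4 differed by −0.16, −0.32, −0.26 and −0.15, all with overlap. PSMB3 had the highest lead value of the ring in DMSO (478 ± 103, against 396 ± 59.6 in APH). The lead region of PSMB1 lies outside the gene and holds the start of its neighbour TBP, the TATA-binding protein. The region at the start of PSMB1 averaged 227 ± 38.9 in DMSO and 182 ± 28.0 in APH. The conditions overlapped there (−0.31 ± 0.15, limma, unadjusted p = 0.058, adjusted p = 0.41).

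All 6 genes of the regulatory-particle ATPases had lower lead values in APH, with a median of −0.24, beside 80.8% below 0 and a median of −0.21 for protein-coding lead regions. PSMC3 and PSMC5 were lower at an unadjusted p under 0.05 (background 25.5%) and both separated the conditions (background 31.5%). PSMC3 measured 167, 167 and 173 in DMSO and 122, 138 and 123 in APH at its start (chr11:47426097-47427370). The DMSO samples were tightly grouped and stood above all APH samples (−0.41 ± 0.13, limma, unadjusted p = 0.0076, adjusted p = 0.29). PSMC5, whose lead region also holds the start of FTSJ3, measured 257, 251 and 239 in DMSO and 186, 226 and 194 in APH, without overlap (−0.31 ± 0.13, limma adjusted p = 0.35). PSMC4 had the strongest ATPase lead region, with 459.9 ± 80.4 in DMSO and 396 ± 75.6 in APH, and overlapped between conditions. Overlap was also found for PSMC1, PSMC2 and PSMC6, at −0.25, −0.17 and −0.21.

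The PSMD genes, which encode the remaining subunits of the regulatory particle and some of its assembly factors, were lower in APH in all 14 cases, 9 of them at an unadjusted p under 0.05 and 10 without overlap, with a median of −0.33. Against these counts stood 25.5% and 31.5% of protein-coding lead regions, 35.9% and 43.2% of start regions, and 80.8% of protein-coding lead regions below 0. The difference between roles was not tested. PSMD9, an assembly chaperone of the regulatory particle, had the smallest p of the 48 genes. Its start region (chr12:121888333-121889298), shared with the HPD gene of tyrosine breakdown, measured 236, 248 and 245 in DMSO and 169, 182 and 186 in APH. The gap between the conditions was wider than the range within either (−0.44 ± 0.12, limma, unadjusted p = 0.0028, adjusted p = 0.29). PSMD3, a scaffold subunit of the lid, measured 252, 273 and 252 in DMSO and 199.8, 200.1 and 185 in APH at chr17:39979876-39980991. Here too all DMSO samples stood above all APH samples (−0.41 ± 0.12, limma, unadjusted p = 0.0049, adjusted p = 0.29). PSMD7, the partner of the deubiquitinase PSMD14, measured 178, 235 and 202 in DMSO and 142, 160.0 and 147 in APH at chr16:74296550-74297244. DMSO was more spread than APH but did not overlap it (−0.45 ± 0.14, limma, unadjusted p = 0.0057, adjusted p = 0.29).

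PSMD14, which removes ubiquitin chains from substrates, measured 245, 286 and 307 in DMSO and 215, 201 and 236 in APH, without overlap (−0.36 ± 0.13, limma adjusted p = 0.31). PSMD4, a ubiquitin receptor, had separate ranges as well, with means of 263 ± 15.3 in DMSO and 208 ± 17.1 in APH. The lid subunits PSMD6, PSMD8, PSMD12 and PSMD13 and the base scaffold PSMD1 did not overlap either, with differences from −0.40 (PSMD1) to −0.30 (PSMD6). Those that overlapped were the base subunit PSMD2 (−0.14), the lid subunit PSMD11 (−0.18) and the assembly chaperones PSMD5 (−0.22) and PSMD10 (−0.22). PSMD5 had the strongest lead region of all 48 genes, with 534 ± 54.9 in DMSO and 460.5 ± 58.5 in APH. The lead region of PSMD13 holds the start of SIRT3, and that of PSMD10 the start of ATG4A.

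The activators PSME1 to PSME4 open the gate of the core particle without the ATPases, and all 4 had lower lead values in APH with a median of −0.38, beside 80.8% of protein-coding lead regions below 0. Of the 4, 2 were lower at an unadjusted p under 0.05 (background 25.5%) and 3 separated the conditions (background 31.5%). PSME1 and PSME2 form the interferon-induced activator ring and lie near each other on chromosome 14. The PSME1 region (chr14:24135713-24136422) measured 176, 198 and 247 in DMSO and 135, 149 and 206 in APH. APH sample 3 lay above 2 DMSO samples (−0.35 ± 0.17, limma adjusted p = 0.41), and the difference ran from −0.22 without DMSO sample 3 to −0.53 without APH sample 3. PSME2, whose region (chr14:24146417-24147783) also holds the start of the ubiquitin ligase gene RNF31, measured 281, 318 and 318 in DMSO and 234, 263 and 271 in APH. The conditions were separate, by a narrow margin (−0.26 ± 0.13, limma, unadjusted p = 0.065, adjusted p = 0.43). PSME3, which forms a nuclear activator ring, measured 153, 157 and 140.1 in DMSO and 108, 114 and 111 in APH at chr17:42832775-42833723. All APH values were well below all DMSO values (−0.43 ± 0.14, limma, unadjusted p = 0.0065, adjusted p = 0.29).

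PSME4, a single-chain activator, had its lead region (chr2:53969293-53969683) 1505 bp inside the gene, with 144, 213 and 155 in DMSO and 133, 124 and 120.2 in APH. The conditions did not overlap and DMSO sample 2 was the highest (−0.42 ± 0.16, limma adjusted p = 0.31), and without it the difference was −0.25. The region at its start measured 124, 114 and 167 in DMSO and 84.2, 84.3 and 142 in APH, where sample 3 was the highest of each condition and the conditions overlapped (−0.41 ± 0.20, limma adjusted p = 0.43). That difference was −0.24 without DMSO sample 3 and −0.65 without APH sample 3. PSME3IP1, which encodes a partner of PSME3, gave the lowest difference of the 48 genes. Its region (chr16:57185872-57186563), which also holds the start of RSPRY1, measured 336, 436 and 385 in DMSO and 246, 318 and 278 in APH. The highest APH value was below the lowest DMSO value (−0.46 ± 0.14, limma, unadjusted p = 0.0058, adjusted p = 0.29). PSMC3IP, which acts in meiotic recombination, measured 167 ± 24.3 in DMSO and 144 ± 5.21 in APH, with all 3 APH values above the lowest DMSO value (−0.20 ± 0.14).

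PSMF1, an inhibitor of the core particle, had no shared region at its start. Its lead region (chr20:1118265-1118802), 5270 bp inside the gene, measured 209.9, 274 and 249.25 in DMSO and 181, 191 and 184 in APH, without overlap (−0.39 ± 0.14, limma, unadjusted p = 0.011, adjusted p = 0.30). Its weaker region 1020 bp from the start had a mean of 67.5 in DMSO and 76.8 in APH. The lead regions of PSMG1 to PSMG4, chaperones that assemble the alpha ring, had the smallest median difference of the roles with more than 2 genes, at −0.08. This median mixes positions, because the lead regions of PSMG2 and PSMG3 do not hold the start. The regions at the start of PSMG1 to PSMG4 differed by −0.29, −0.19, −0.42 and −0.11. PSMG1 measured 203, 202 and 253 in DMSO and 160.5, 182 and 193 in APH, without overlap (−0.29 ± 0.14, limma adjusted p = 0.40). PSMG3, its lead region (chr7:1568977-1569492) 798 bp inside the gene, measured 102, 127 and 101 in DMSO and 123, 119 and 101 in APH, with overlap (0.06 ± 0.16, limma adjusted p = 0.92). That difference ran from 0.0012 without APH sample 1 to 0.16 without DMSO sample 2, and was 0.0029 without DMSO sample 1, 0.0015 without DMSO sample 3, 0.023 without APH sample 2 and 0.15 without APH sample 3. The region at the start of PSMG3 measured 119, 97.05 and 149.9 in DMSO and 89.95, 74.1 and 108 in APH, lower in APH on average but with overlap (−0.42 ± 0.19, limma, unadjusted p = 0.039, adjusted p = 0.37), and −0.26 without DMSO sample 3. PSMG2 and PSMG4 differed by −0.05 and −0.11, the former in a region 45201 bp inside the gene.

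**Figure D3:**
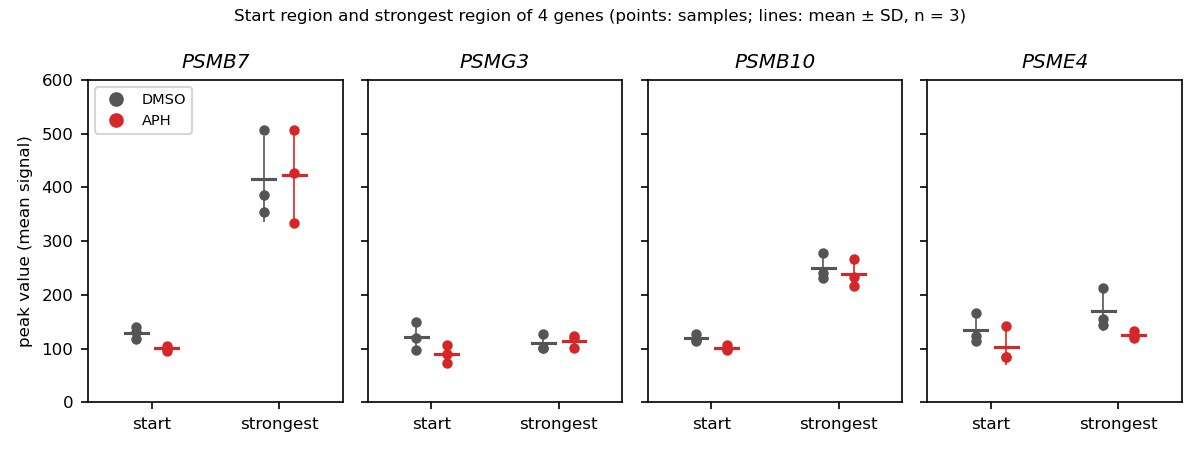
Peak value (mean coverage, linear axis from 0) of the region at the start and of the lead region of PSMB7, PSMG3, PSMB10 and PSME4, with 1 point per sample and the mean ± SD of 3 samples. At the start of PSMB7 and PSMB10 all APH points lie below all DMSO points, while in their stronger regions the conditions overlap.

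These genes led to a comparison by position, chosen after the values were seen. A shared region holding the start was found for 45 proteasome genes, and all 45 had a lower value in APH, with a median of −0.30 (−0.46 to −0.11). This was close to start regions in general: 94.2% of the 9117 start regions of protein-coding genes were below 0, with a median of −0.27. At an unadjusted p under 0.05, 17 proteasome start regions were lower (37.8%), against 35.9% of all start regions, and in 20 (44.4%) every APH value lay below every DMSO value, against 43.2%. The count of 17 was 10 without DMSO sample 3 and 7 without APH sample 1. After correction for the trend with level the median was −0.10 for proteasome start regions and −0.11 for all start regions, with 40 of the 45 proteasome start regions (88.9%) and 75.7% of all start regions below 0. At an unadjusted p under 0.05, 3 of the 45 were then lower, against 8.25% of all start regions. Without APH sample 3, 44 of the 45 were below 0.

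The 37 shared regions of proteasome genes away from the start had a median difference of 0.00, with 18 below 0 (48.6%) and 19 above, beside a median of −0.02 and 54.4% below 0 for such regions of protein-coding genes. At an unadjusted p under 0.05, 3 (8.11%) were lower, against 4.85% of those 21941 regions. The 3 were the lead regions of PSME4 and PSMF1 and a region 43971 bp inside PSMG2, which averaged 90.3 ± 19.4 in DMSO and 66.3 ± 9.48 in APH. The median value of these 37 regions was 68.7 in DMSO and 69.8 in APH, and that of the 45 start regions 169 and 144.

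**Figure D4:**
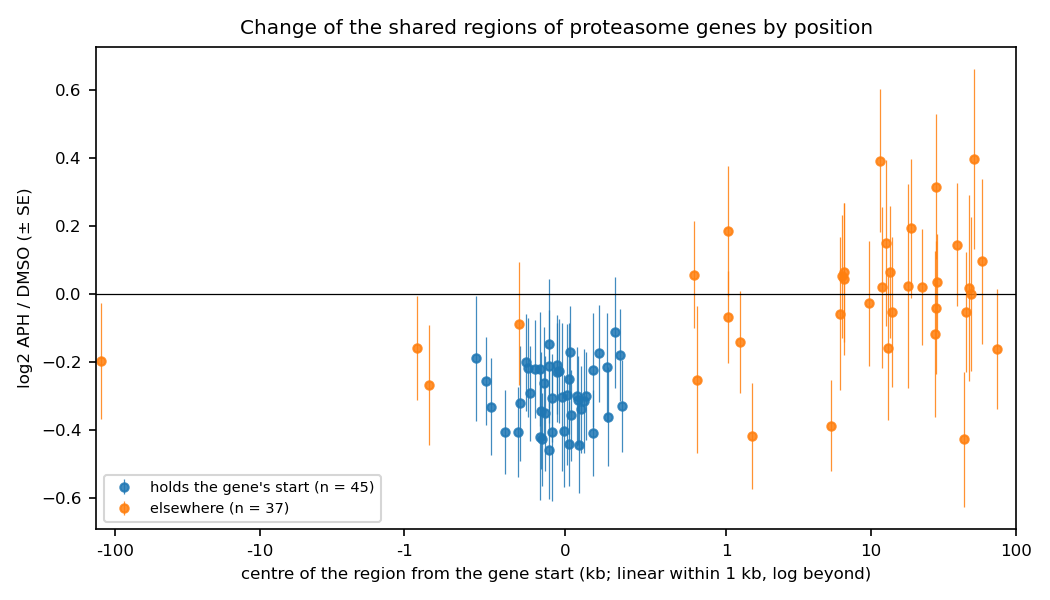
Difference (log2 APH over DMSO ± SE from limma) of the 82 shared regions of proteasome genes against the distance of their centre from the gene's start (kb, linear within 1 kb and logarithmic beyond). The 45 regions that hold the start, in blue, all lie below 0, and the 37 others, in orange, lie on both sides of it.

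Promoter sequences were available in RefSeq (GRCh38.p14) for 42 of the 48 genes, in a window of 250 bases before to 50 after the start. The motifs ETS (CCGGAAG) and ARE (TGACNNNGC), searched on both strands, were found in 14 (33.3%) and 12 (28.6%) of them, against 14.2% and 14.3% of 15842 protein-coding promoters, and 23 held at least 1 of the 2. The ETS letters were found in PSMD6, PSMD7, PSMD8, PSMD9, PSMD12, PSMD13 and PSMD14 among others, and the ARE letters in PSMD1, PSMD3, PSMD5, PSMD9 and PSMD12. CCAAT was found in 47.6% of the 42 and 36.4% of all, GGGCGG in 66.7% and 58.5%, TATAAA in 11.9% and 9.63%, and CACGTG in 9.52% and 8.88%. TGACGTCA was in none of the 42, against 2.59% of all, and TGANTCA and GAANNTTC were in 1 each, against 5.75% and 5.56%. GCATGCGC and AAGATGGCG were in 2 each (4.76%), against 4.26% and 2.74%. The median GC content was 61.7% for the 42 and 62.7% for all, with PSMC2 lowest at 44.7% and PSME4 highest at 75.3%.

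The start region differed by a median of −0.31 in the 13 genes with an ETS match and a shared start region and by −0.26 in the 26 without, and by −0.31 in the 12 with an ARE match and −0.25 in the 27 without. These are descriptions with no test. The 250 bases before the start are printed below for 5 genes, 5′ to 3′ on the gene's strand, in lower case with ETS and ARE matches in capitals. PSMD3, PSME1 and PSME2 show the ARE match in genes whose lead region covers it. PSMB5 encodes a constitutive proteolytic subunit and has neither match, with 45.2% GC in the bases printed. PSMA8, with an ETS match, had no shared region over its start. The windows lie at chr17:39980557-39980806 (plus strand) for PSMD3, chr14:24135944-24136193 (plus) for PSME1, chr14:24146611-24146860 (minus) for PSME2, chr14:23035221-23035470 (minus) for PSMB5 and chr18:26133619-26133868 (plus) for PSMA8.
PSMD3: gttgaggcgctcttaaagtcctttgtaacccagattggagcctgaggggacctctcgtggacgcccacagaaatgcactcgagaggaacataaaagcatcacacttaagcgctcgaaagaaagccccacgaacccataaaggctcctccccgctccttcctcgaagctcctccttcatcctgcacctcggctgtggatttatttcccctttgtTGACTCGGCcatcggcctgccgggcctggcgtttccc
PSME1: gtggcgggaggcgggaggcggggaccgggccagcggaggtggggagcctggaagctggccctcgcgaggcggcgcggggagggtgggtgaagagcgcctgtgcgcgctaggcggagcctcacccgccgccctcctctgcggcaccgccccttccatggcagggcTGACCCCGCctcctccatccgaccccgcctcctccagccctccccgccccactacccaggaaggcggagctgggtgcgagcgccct
PSME2: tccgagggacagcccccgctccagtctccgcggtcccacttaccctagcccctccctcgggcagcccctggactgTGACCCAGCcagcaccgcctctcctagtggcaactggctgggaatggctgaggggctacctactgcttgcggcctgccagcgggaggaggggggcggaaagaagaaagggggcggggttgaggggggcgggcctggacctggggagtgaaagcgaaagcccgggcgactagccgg
PSMB5: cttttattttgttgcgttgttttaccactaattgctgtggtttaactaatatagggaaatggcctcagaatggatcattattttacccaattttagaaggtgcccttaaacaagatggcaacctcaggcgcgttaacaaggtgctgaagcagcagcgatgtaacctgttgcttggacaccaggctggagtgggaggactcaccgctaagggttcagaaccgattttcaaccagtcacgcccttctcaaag
PSMA8: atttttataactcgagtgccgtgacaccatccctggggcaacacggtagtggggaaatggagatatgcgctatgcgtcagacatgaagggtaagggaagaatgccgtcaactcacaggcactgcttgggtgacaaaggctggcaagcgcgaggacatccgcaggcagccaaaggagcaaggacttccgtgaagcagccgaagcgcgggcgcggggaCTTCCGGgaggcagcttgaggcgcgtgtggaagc

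The lead regions of 27 other genes of the pathway were examined, among them ubiquitin genes, shuttle receptors, associated deubiquitinases, assembly factors and regulators such as NFE2L1. All 27 had a lower value in APH (median −0.32, from −0.51 to −0.05), 15 of them at an unadjusted p under 0.05 and 19 without overlap, and none passed the adjusted p. The background was 25.5% and 31.5% of protein-coding lead regions and 35.9% and 43.2% of start regions, and 80.8% of protein-coding lead regions were below 0. RAD23B, which carries ubiquitinated proteins to the proteasome, had the smallest p of the list, with 324, 352 and 387 in DMSO and 256, 237 and 274 in APH. The conditions did not overlap (−0.47 ± 0.13, limma, unadjusted p = 0.0025, adjusted p = 0.29). ZFAND5, a proteasome-binding stress protein, averaged 171 ± 1.48 in DMSO and 123 ± 12.2 in APH. DDI2, the protease that activates NFE2L1, averaged 184 ± 24.3 and 129 ± 17.0.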

How the data were processed

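ATAC-seq peak lists of 6 RKO samples, 3 DMSO and 3 APH, were used. The authors aligned reads to hg38 with BWA 0.7.12, removed duplicates, called peaks per sample with MACS2 2.1.0 (versions from the submitters' processing notes) and removed blacklisted peaks. The deposited signal was taken, from the study's methods and the values, as the mean coverage over each peak in 32-nt bins without scaling to library size. Depth is unknown, so no counting interval is given.

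Peaks that shared 1 bp or more were joined, and a region's value in a sample was the length-weighted mean of its peaks. The 50150 shared regions (present in every sample) were fitted with limma 3.58.1 in R 4.3.3 on log2(value + 1), condition only, with an intensity trend, two-sided, and Benjamini-Hochberg adjustment at 0.05. The fit was run on simulated data with added changes larger than any difference of the proteasome lead regions. That run therefore says nothing about changes of the size seen here. Tables were made with Python 3.11.15 and pandas 2.3.3.

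Genes, starts and promoters came from RefSeq GRCh38.p14, and the strand of 6 genes lacking a promoter entry from a GENCODE annotation by symbol. Exons and introns were not examined. Named with statistics were the 5 lead regions of smallest p in each direction (3 in all were higher), the proteolytic and tissue-restricted subunits with PSMA7, and the activators. PSMA3, PSMC3, PSMC5, PSMD4, PSMD14, PSMF1, PSMG1, PSMG2 and other genes printed with values were added to describe their role. Pathway genes were named for the 3 smallest p. The genes, lists and tests were chosen with earlier results of these data known, and the start-region comparison after the values were seen.

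Alternatives covered scaling, pseudocounts 0 and 5, a peak value of at least 30, equal peak numbers, overlap, samples required, the highest peak, peak width, a replicate block, gene bounds, the partner genes and each sample left out.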

Additional observations from a re-analysis of the deposited data

How the results depend on the processing

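No alternative gave a proteasome region past the adjusted p of 0.05 except the replicate block and the median peak width as a covariate. With the replicate block, 26 regions passed, 31 lead regions were lower and 1 higher at an unadjusted p under 0.05, and 35 start regions were lower, where 46.5% of protein-coding lead regions were lower and 3.12% higher and 63.1% of start regions were lower. Of the lead regions, 43.8% passed the adjusted p lower in APH with the block, against 28.5% of protein-coding lead regions and 11.1% of all shared regions. Whether same-numbered samples form pairs could not be settled. Their deviations from the condition mean correlated at −0.0067, 0.48 and 0.52 for numbers 1, 2 and 3. The values for numbers 2 and 3 were the highest of all pairs of a DMSO and an APH sample. DMSO sample 1 correlated best with APH sample 3, at 0.13. With peak width, 22 regions passed (43.8% of the lead regions, against 23.1% of protein-coding lead regions and 10.6% of all shared regions, all lower in APH), 34 lead and 32 start regions were lower (background 42.2% and 45.9%) and the lead median was −0.38, while the median of all shared regions was −0.21, and PSMA8 (−0.081), PSMG3 (−0.13) and PSMB7 (−0.27) turned lower. Quantile normalization left 4 lower and 1 higher lead regions (median −0.079) and 4 lower start regions (median −0.10; background 6.43% lower, 4.31% higher and 8.74%), with PSMB10 at 0.15. Correction for the trend with level left 3, 1 and −0.080, and 3 and −0.10, with PSMB10 at 0.16 and PSMB11 at 0.0011. Under both, 40 of the 45 start regions stayed below 0. Counting regions in the gene only gave 10 lower among 32 lead regions and 9 among 22 start regions. Leaving out each sample gave 9 to 23 lower and 0 to 1 higher lead regions, 7 to 21 lower start regions, and differences of −0.12 to 0.18 for PSMB7, −0.15 to 0.0090 for PSMB10 and −0.21 to 0.082 for PSMB11. Of 377 values of single genes, 344 kept their direction and side of the threshold, 21 passed it and 12 turned direction. Beyond what the constructions show, the cause was not tested. As depth is unknown, counting error could not be separated from the spread between samples.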
